A study of Mus musculus with 6 samples.

Results

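The genes described here are 36 p53 targets and p53 regulators, sorted into arrest (8), apoptosis (14), repair (9) and feedback (5). They were chosen by name, with earlier results of these data known. On the array, 33 of them had at least 1 probe set annotated with that gene alone, out of 18193 genes with such a probe set. For each gene the probe set with the highest mean intensity was used. Of the 33, 30 passed the filter on dim genes and were tested among 13042 genes in all. Eda2r, Tnfrsf10b and Zfp365 did not pass it, and Bax, Gdf15 and Trp53 were not analysed here.

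p53 is a transcription factor that is stabilised after DNA damage and other stresses and then switches on genes that halt the cell cycle, trigger cell death or repair DNA. Among its targets are its own inhibitors, so that the response limits itself: Mdm2 marks p53 for degradation and Ppm1d removes activating phosphates. In the intestine the pathway is best known for the loss of crypt cells after irradiation.

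The study compared mouse small intestine with and without Fitm2 (FIT2), a gene whose product sits in the endoplasmic reticulum and promotes the formation of lipid droplets. Controls carried the genotype L/L, whose letters the labels do not explain. The KO genotype was ROSA26CreERT2 L/L, which adds CreERT2, a Cre recombinase that tamoxifen activates, at the broadly active ROSA26 locus. Both genotypes received tamoxifen at 100 µg per g by intraperitoneal injection on days 1, 2 and 3. The flushed whole small intestine was collected on day 2, 3 or 5, and whether mice taken on day 2 or 3 got the later injections is not given. Each array held RNA pooled from mice of 1 genotype and day: the L/L pools held 6, 6 and 8 mice on days 2, 3 and 5, and the KO pools 7, 6 and 7. Mouse age and strain are not given in the labels. By their label the L/L mice carry no Cre, so loss of Fitm2 and the presence of active CreERT2 cannot be told apart in any comparison below.

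With 1 array per genotype and day, a difference on a single day has no replicate and no test. The 6 arrays limit the precision throughout, and the spread between mice is not visible. The 3 days served as repeats of the genotype difference. The p-values rest on the spread between those 3 differences, or, for a change with day, on their departure from a straight line. In both tests that spread is drawn towards a value estimated from all genes tested. In the test over the 3 days, a difference that grows steadily with day adds to the spread and so raises the p-value. The median intensity of the arrays lay between 57.7 and 59.7. Fitm2 was at 193 to 223 in L/L and 119.6 to 127 in KO, and Esr1, the receptor whose hormone-binding domain is the ERT2 part of CreERT2, was at 39.8 to 56.1 in L/L and 355 to 465 in KO. All 7 epithelial and all 6 measured enterocyte markers were above the filter threshold (an intensity of 38.9), and no erythroid marker was.

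The first members shown are those with a p53 motif beside the start of the gene, since p53 acts by binding DNA at or near its targets. RefSeq promoter windows (GRCm38.p6, 250 bases before to 50 after a start) were found for 22 of the 30 members tested. In 9 of these 22 genes (40.9%), a window held an exact match to the p53 consensus decamer, a motif of 10 bases that reads the same on both strands, against 871 of 10474 tested genes with a window (8.32%). The high share was particular to this list. Of 57 other p53 targets with a window, tested or not, 6 held a decamer (10.5%). The 9 genes were Cdkn1a, Ccng1, Aen, Ei24, Polk, Sesn1, Mdm2, Ppm1d and Rps27l. The stretches below lie before the start, are written 5′ to 3′ along the gene, and carry the decamer in capitals. They show genes whose KO values were higher, beside Sesn1, whose mean difference was below 0.
Cdkn1a (chr17:29090846-29090975, + strand): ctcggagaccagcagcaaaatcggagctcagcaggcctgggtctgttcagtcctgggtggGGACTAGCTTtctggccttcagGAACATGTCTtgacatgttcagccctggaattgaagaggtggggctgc
Ccng1 (chr11:40755402-40755531, - strand): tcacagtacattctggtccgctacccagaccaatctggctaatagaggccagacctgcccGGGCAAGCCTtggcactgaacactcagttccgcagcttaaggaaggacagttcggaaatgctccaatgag
Polk (chr13:96519349-96519437, - strand): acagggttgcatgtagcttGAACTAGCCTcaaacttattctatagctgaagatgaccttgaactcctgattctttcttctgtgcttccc
Mdm2 (chr10:117710875-117711004, - strand): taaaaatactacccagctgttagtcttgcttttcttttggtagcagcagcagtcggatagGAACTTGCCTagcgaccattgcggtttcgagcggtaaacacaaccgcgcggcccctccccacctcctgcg
Sesn1 (chr10:41887206-41887335, + strand): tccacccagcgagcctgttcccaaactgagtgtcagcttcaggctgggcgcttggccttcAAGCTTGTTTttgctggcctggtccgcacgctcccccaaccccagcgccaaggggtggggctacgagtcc
Cdkn1a was the only member with a pair of decamers no more than 13 bases apart. Such a pair was found in 5 of 10474 tested genes with a window (0.0477%), and in 0.0731% of all 32851 windows. A match is a description of the letters and not evidence of binding. Among the 22 members with a window, those with a decamer were not the more different ones. Their mean log2 differences between KO and L/L ran from -0.27 to 1.38 with a median of 0.27. Those of the 13 without ran from -0.15 to 2.00 with a median of 0.40. Members with no window, such as Glipr1, Zmat3 and Xpc, are in neither group, and sites outside the windows were not searched.

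Because the list was chosen with earlier results of these data known, the shares below describe it and are no test of it. Over the 3 days, 22 of the 30 members tested were higher in KO on every day, 2 were lower on every day and 6 were mixed. This was 73.3% against 22.1% of all genes tested for higher on every day, and 17.4% of all genes were lower on every day. For 18 members (60%) every KO array lay above every L/L array, against 7.48% of all genes, and for no member did every KO array lie below, against 5.66% of all genes. The median log2 difference of the members was 0.14, 0.38 and 0.52 on days 2, 3 and 5, while the median of all genes was 0.01, -0.01 and 0.02. Between the L/L pools the members' median moved by 0.00052 from day 2 to day 3 and by -0.04 from day 2 to day 5. At least 2-fold higher in KO were 1 member on day 2 (Glipr1), 7 on day 3 and 10 on day 5. These are 3.33%, 23.3% and 33.3% of the members, against 0.092%, 0.184% and 1.28% of all genes. In its brightest probe set no member was 2-fold lower on any day, against 0.0307%, 0.092% and 0.882% of all genes. Another probe set of Sesn1 was at -1.06 on day 5.

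**Figure D1:**
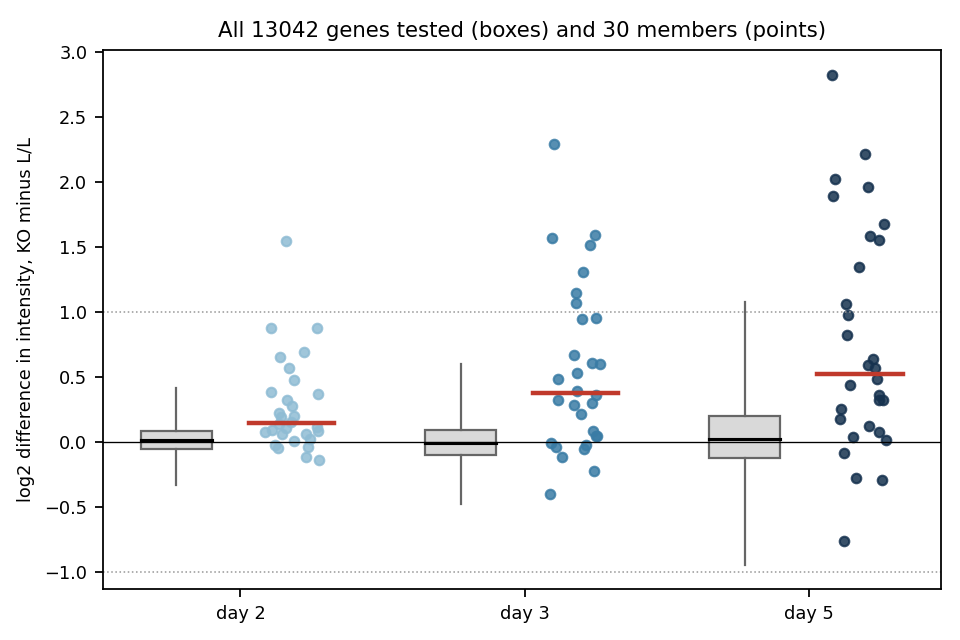
Log2 difference in intensity between KO and L/L (vertical axis) on days 2, 3 and 5. Grey boxes hold the middle 25th to 75th percentiles of 13042 genes, with the median as a black line and whiskers to the 1st and 99th percentiles; points are the 30 members tested, red lines their medians of 0.14, 0.38 and 0.52, and dotted lines mark 2-fold.

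In the test over the 3 days (limma with day as a factor, adjusted over all 13042 genes), 1 member rose, Glipr1, and none fell. Of all genes 0.023% rose. Before adjustment 19 members had a limma p under 0.05, all higher in KO, against 7.68% of all genes higher and 4.61% lower. The test of whether the difference changed with day called Ccng1 and Zmat3, both with a difference that grew, against 0.644% of all genes, while no member and 0.583% of all genes fell with day. In 18 members (60%) the difference was larger on day 3 than on day 2 and larger again on day 5, a pattern of 21.4% of all genes. The number of members called for a change with day varied with the processing, from 0 to 9 over 8 alternatives, and without the filter on dim genes it was 0.

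Markers of other cell types also differed in level between the arrays. Their levels are sums of intensities over each list, all of whose measured genes were above the filter threshold. The 4 Paneth cell markers summed to between 22531 and 24017 on the L/L arrays and between 27318 and 38950 on the KO arrays. The 8 myeloid markers summed to 2458 to 3190 in L/L and 3465 to 5183 in KO, and the 6 endothelial markers to 1245 to 1430 and 1566 to 1917. Higher in KO on all 3 days were 4 of 4 Paneth, 6 of 8 myeloid and 6 of 6 endothelial markers. So were 4 of 5 goblet, 2 of 6 enterocyte and 1 of 7 epithelial markers, against 22.1% of all genes. The 6 enteroendocrine markers summed on day 2 to 5210 in L/L against 5224 in KO, and on day 5 to 3251 against 6397, and 2 of them were higher on all 3 days. The fibroblast and smooth muscle sums overlapped between genotypes over the 3 days, but on day 5 they were 17477 and 25720 in KO against at most 12765 and 21380 in L/L. The 5 crypt stem cell markers summed to 6590 to 7511 in L/L and 2965 to 7470 in KO, a sum made up mostly of Olfm4, which on day 5 was at 6061 in L/L against 1545 in KO. The median difference of these 5 on day 5 was -0.07. The sums for T cells and for B and plasma cells overlapped. So did those for epithelium, enterocytes, goblet cells, adipocytes and pancreatic acinar cells. On day 5 the epithelial and adipocyte sums were 75149 and 1582 in KO against at most 71586 and 1350 in L/L. In whole tissue, fewer cells of a type and less RNA per cell cannot be told apart, and the part of these cells in the p53 values was not tested.

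**Figure D2:**
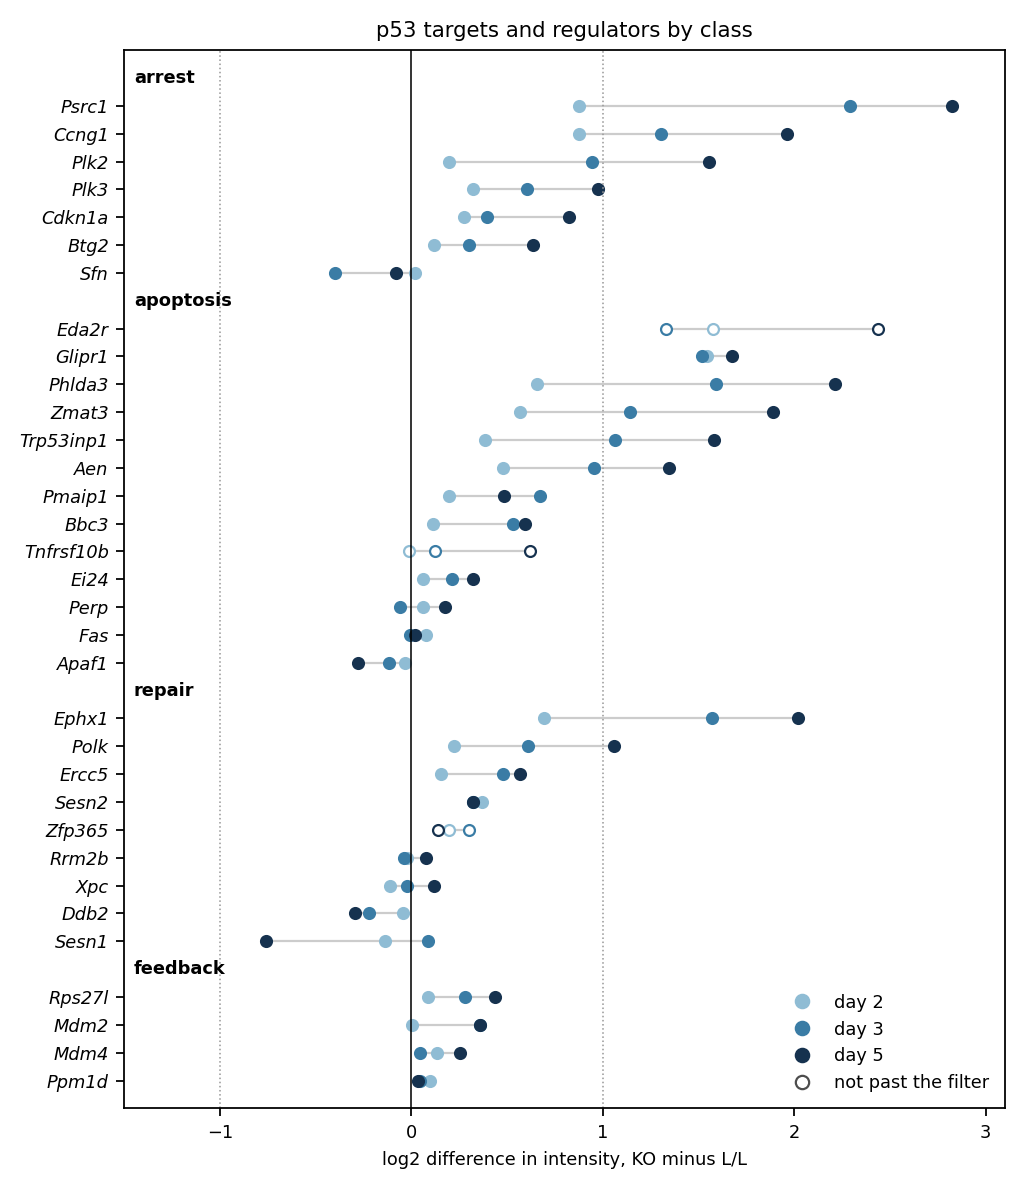
Log2 difference in intensity between KO and L/L (horizontal axis) for each of the 33 members on the array, by class, with 1 point per day; open points mark the 3 members that did not pass the filter and dotted lines mark 2-fold. Most arrest and apoptosis members move to the right from day 2 to day 5, Glipr1 stays between 1.52 and 1.68, and Sesn1 lies at -0.76 on day 5.

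Of the arrest genes, 7 of 8 were tested, and 6 were higher in KO on all 3 days, with class medians of 0.27, 0.60 and 0.97 on the log2 scale. In the probe set used, Psrc1, a microtubule-binding protein, had the highest mean difference of all members that were tested. On days 2, 3 and 5 its L/L intensity was 73.3, 62.7 and 74.2, and that of KO 134, 307 and 525. The L/L pools stayed close together while each KO pool lay above them, 7.07-fold on day 5. The mean log2 difference was 2.00 ± 1.01 (SD over 3 days) and did not pass (limma adjusted p = 0.354; change with day 0.0988). Another Psrc1 probe set was brighter in L/L, at 98.1, 74.1 and 84.7, and stood at 115, 194 and 218 in KO. It gave smaller differences of 0.23, 1.39 and 1.37. The probe set used was thus the brightest over the 6 arrays only through its KO values.

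Ccng1, cyclin G1, which brings the phosphatase PP2A to Mdm2, was at 979.8, 961 and 910.4 in L/L, compared with 1799.8, 2376 and 3548 in KO. No KO array overlapped L/L, and the log2 difference went from 0.88 to 1.31 and 1.96. That growth of 0.36 log2 units per day passed (limma adjusted p = 0.0454; 0.00835 to 0.169 over 8 alternatives, 6 of which kept the call). The mean difference of 1.38 ± 0.55 did not (limma adjusted p = 0.331). All 3 Ccng1 probe sets gave similar means, 1.38, 1.48 and 1.24.

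Cdkn1a encodes p21, the inhibitor of cyclin-dependent kinases through which p53 stops the cycle. It was already bright in L/L, at 2687, 2777 and 2416, and reached 3248, 3650.5 and 4274 in KO. The genotypes did not overlap. In the probe sets used, its differences of 0.27, 0.39 and 0.82 were far smaller than those of Psrc1 and Ccng1. The Cdkn1a mean was 0.50 ± 0.29 (limma adjusted p = 0.381). A second Cdkn1a probe set gave 0.23, 0.42 and 1.00, which is 2-fold on day 5, with a mean of 0.55.

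Plk2, a stress-induced kinase of the polo family, was at 271, 237 and 215 in L/L against 311, 456 and 632 in KO. Its differences of 0.19, 0.94 and 1.55 rose with day, a rise that the test over the 3 days counts as spread. Neither test passed (mean 0.90 ± 0.68, limma adjusted p = 0.381; change with day 0.0509). Plk3, its relative, went from 128, 170.2 and 148 in L/L to 160.2, 258 and 292 in KO, where the lowest KO value lay within the L/L range. Btg2, an antiproliferative factor, was at 722, 627 and 490.0 in L/L, compared with 782, 772 and 760.2 in KO. In this probe set the KO pools were nearly level while L/L was lower on each later day. Its second probe set was at 593, 422 and 478 in L/L against 640, 656 and 809 in KO, where KO was higher on each later day. Sfn, the epithelial 14-3-3 sigma, had the opposite sign on days 3 and 5: 261, 345 and 272 in L/L against 264, 261 and 257 in KO.

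**Figure D3:**
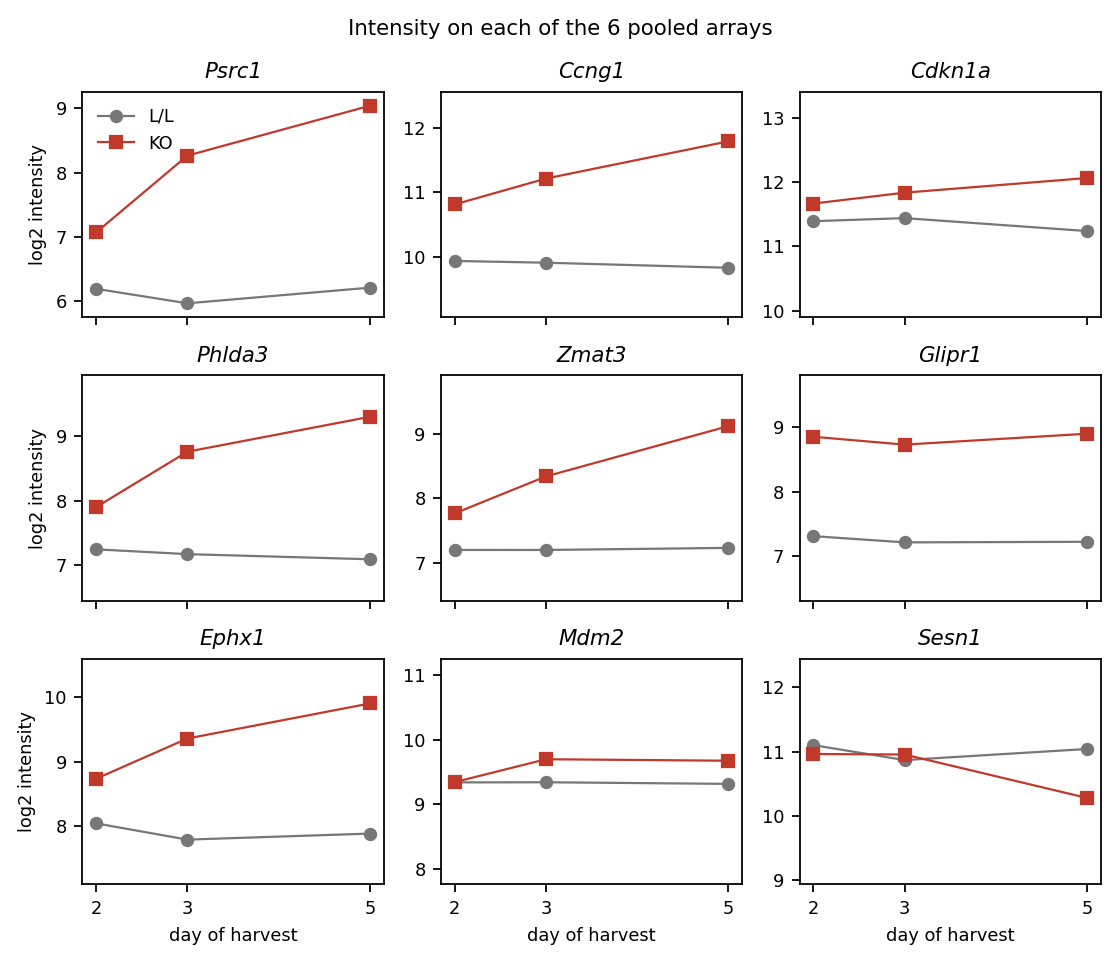
Log2 intensity (vertical axis, the same span of 3.5 units in each panel) against day of harvest for 9 members, with L/L arrays as grey circles and KO arrays as red squares; each point is 1 pooled array and lines only join points of a genotype. L/L values stay nearly level in all panels, KO values of Psrc1, Ccng1, Phlda3, Zmat3 and Ephx1 climb with day, Glipr1 is separated from day 2 on, and Sesn1 is lower in KO on day 5.

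Apoptosis genes were split. Of 14, 11 were tested and 8 were higher in KO on all 3 days, with class medians of 0.20, 0.67 and 0.59. Glipr1, a secreted protein of the CAP family with reported death-promoting activity, was at 159, 148 and 149 in L/L against 462, 425 and 478 in KO. The gap was about the same size on each day, 1.54, 1.52 and 1.68. Glipr1 rose 2.99-fold (log2 1.58 ± 0.09 SD over 3 days, limma adjusted p = 0.0148), and its difference did not pass for a change with day (limma adjusted p = 0.661). Without day 2 its adjusted p in limma was 0.0558, without day 3 it was 0.651, and over 11 alternatives it ran from 0.00244 to 0.651, with 8 keeping the call. A second probe set of Glipr1, dim on all 6 arrays at no more than 37.2, gave a mean of 0.36.

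Phlda3, which blocks the survival kinase Akt, differed more on each later day, with L/L at 151, 144 and 136 and KO at 239, 433 and 629.9. By day 5 it was 4.63-fold higher (mean log2 difference 1.48 ± 0.78, limma adjusted p = 0.378; change with day 0.059). Zmat3, a zinc-finger protein that binds RNA, was at 147, 147 and 150.0 in L/L, within 0.03 log2 units of each other, and at 217, 324 and 556 in KO. Its difference grew by 0.43 log2 units per day, which passed (limma adjusted p = 0.0396; 0.00673 to 0.169 over 8 alternatives, 7 of which kept the call). The mean of 1.20 ± 0.66 did not pass (limma adjusted p = 0.381).

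Trp53inp1, a nuclear cofactor that promotes p53 phosphorylation, was at 518, 401 and 585 in L/L, compared with 676, 838 and 1752 in KO. Aen, a nuclease that takes part in DNA breakdown during apoptosis, was at 168, 189.5 and 139 in L/L against 233, 367 and 353 in KO. Every KO array exceeded every L/L array for both, with means of 1.01 ± 0.60 and 0.93 ± 0.44 (limma adjusted p = 0.381 and 0.347).

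The BH3-only genes, whose products set off the mitochondrial death pathway, showed smaller gaps. Pmaip1 (Noxa) was at 2390.3, 1824 and 2116 in L/L, compared with 2738, 2900.2 and 2955 in KO, and Bbc3 (Puma) at 93.3, 77.8 and 74.8 in L/L against 101, 112 and 113 in KO. Neither gene overlapped between genotypes, and their means were 0.45 ± 0.24 and 0.41 ± 0.26 (limma adjusted p = 0.381 for both). Ei24, of the endoplasmic reticulum, differed by 0.20 ± 0.13 (limma adjusted p = 0.401). Death receptor Fas, at 199 to 215 in L/L and 209 to 214 in KO, differed by 0.03 ± 0.04, and Perp, a desmosome component, by 0.06 ± 0.12. Apaf1, the scaffold of the apoptosome, had daily differences of -0.04, -0.12 and -0.28 with overlapping arrays (limma adjusted p = 0.445).

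Eda2r, a receptor of the TNF family, did not pass the filter because its L/L arrays were dim. It was at 13.1, 20.7 and 14.7 in L/L, all under the threshold of 38.9, and at 39.2, 51.9 and 79.5 in KO, all above it. The measured differences were 1.58, 1.33 and 2.44, with no test. Setting every L/L intensity to that threshold, which was decided on with the values known, gave 0.01, 0.41 and 1.03. Tnfrsf10b, the TRAIL receptor, was under the threshold on all 6 arrays, at 18.6 to 27.7 in L/L and 22.7 to 30.1 in KO.

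In the repair class, 8 of 9 genes were tested and 4 were higher on all 3 days, with medians of 0.07, 0.20 and 0.22. Ephx1, microsomal epoxide hydrolase, which detoxifies reactive epoxides, was far above the rest of the class. It stood at 264, 221 and 236 in L/L, compared with 426, 657 and 957 in KO, 4.05-fold higher on day 5, with a mean of 1.43 ± 0.67 (limma adjusted p = 0.341; change with day 0.0858). Polk, a polymerase that copies past damaged bases, was at 133, 128 and 125 in L/L against 155, 196 and 259 in KO (mean 0.63 ± 0.42, limma adjusted p = 0.381). Ercc5, an endonuclease of nucleotide excision repair, was at 174, 179 and 225 in L/L, compared with 193, 250.0 and 333 in KO, with overlap.

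The other repair genes showed no common direction. The damage sensors of nucleotide excision repair differed by -0.19 ± 0.13 for Ddb2, which was lower on each day, and by -0.0049 ± 0.12 for Xpc (limma adjusted p = 0.408 and 0.979). Rrm2b, the p53-induced subunit of ribonucleotide reductase, was at 154, 160.1 and 170.5 in L/L against 151, 156 and 179 in KO. Zfp365, linked to genome stability, was under the threshold on all 6 arrays, at 11.3 to 13.5 in L/L and 12.9 to 15.4 in KO.

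Sestrins, which protect against oxidants and restrain the growth kinase mTORC1, had means of opposite sign. Sesn2 was higher in KO by a steady 0.37, 0.32 and 0.32, from 127, 144 and 135 in L/L to 164, 179 and 169 in KO (mean 0.34 ± 0.03, limma adjusted p = 0.341). Its second probe set was at 69.6, 53.2 and 49.5 in L/L, compared with 90.2, 129 and 164 in KO, with differences of 0.37, 1.28 and 1.73. Sesn1 was at 2194, 1868 and 2105 in L/L against 1994, 1983 and 1243 in KO, so that the day 5 KO array was the lowest of the 6 by a wide margin. On that day its 4 probe sets, all above the threshold, gave -0.76, -1.06, -0.30 and -0.77. The mean was -0.27 ± 0.44 (limma adjusted p = 0.503; change with day 0.21).

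In their brightest probe sets, feedback genes differed by at most 0.27 in their means. All 4 tested were higher in KO on all 3 days, with medians of 0.09, 0.16 and 0.31, and none was 2-fold apart on any day in these probe sets. Mdm2, the ubiquitin ligase that degrades p53, was at 648, 649 and 637 in L/L, compared with 649.5, 831 and 818 in KO: level with L/L on day 2 and above it on days 3 and 5. Its mean was 0.24 ± 0.20 (limma adjusted p = 0.407), and a second probe set gave differences of 0.29, 0.41 and 1.08. Mdm4, the relative of Mdm2 that blocks p53 without degrading it, differed by 0.14 ± 0.10 in its brightest probe set. The 2 others above the threshold gave 0.27 and -0.07. Rps27l, a ribosomal protein paralogue that binds Mdm2, was among the brightest members, at 4470.3, 4563 and 4935 in L/L against 4744, 5541 and 6680.0 in KO (mean 0.27 ± 0.18, limma adjusted p = 0.388). Its other 2 probe sets gave 0.29 and 0.38. All 3 may be uncertain, since the gene is close in sequence to Rps27, and whether the probes tell these genes apart was not tested. Ppm1d differed by 0.06 ± 0.03, at 95.0 to 108 in L/L and 102 to 111 in KO.

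Probe sets of the same gene mostly pointed the same way. Of the members with further probe sets above the threshold, 16 in number, there were 22 such probe sets, and 21 had the sign of the brightest one, the exception being that of Mdm4. Sizes varied more: Psrc1 gave 2.00 and 0.99, Sesn2 0.34 and 1.13, Mdm2 0.24 and 0.59, Aen 0.93, 1.01 and 0.35, and Trp53inp1 1.01 and 0.38. For Sesn2 and Mdm2 the brightest probe set was thus the less different.

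**Figure D4:**
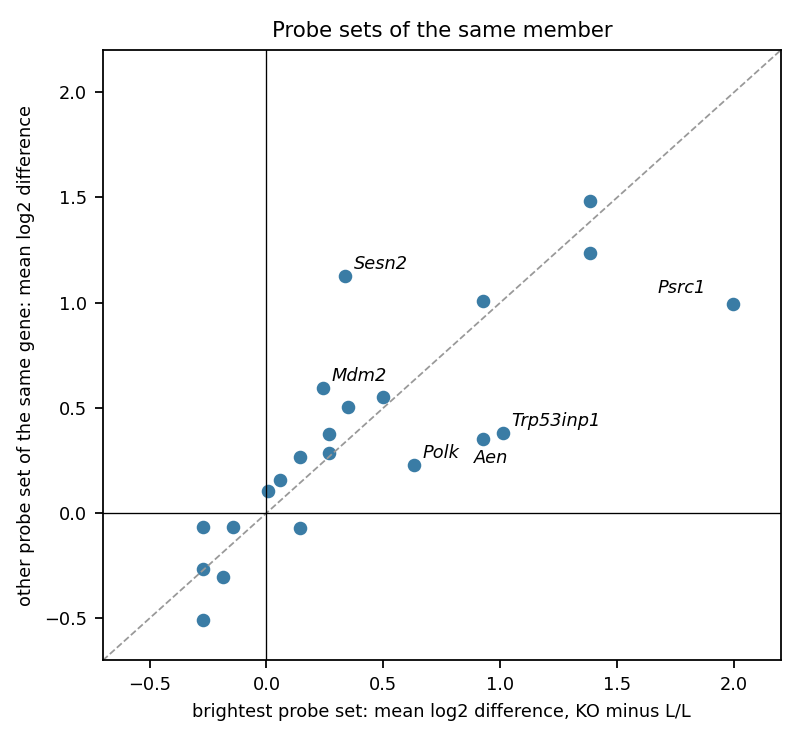
Mean log2 difference between KO and L/L over the 3 days for the brightest probe set of a member (horizontal axis) and for each of its 22 other probe sets above the filter threshold (vertical axis); the dashed line marks equality and genes more than 0.3 from it are named. All but 1 point lie in the quadrants of equal sign, with Sesn2 and Mdm2 above the line and Psrc1, Trp53inp1, Aen and Polk below it.

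Further genes of the pathway were described in the same fit. Of 62 other p53 targets, 54 were tested, 30 were higher in KO on all 3 days and 8 lower, with medians of 0.07, 0.10 and 0.23, below those of the members on each day. Higher on all 3 days were thus 55.6%, against 22.1% of all genes. None passed the limma test over the 3 days in either direction and 20 had an unadjusted p under 0.05 (17 higher, 3 lower), which is 37% against 12.3% of all genes. Furthest from 0 were Siva1 (0.76), a death-domain adaptor, Ddit4 (0.66), an inhibitor of mTORC1, Gtse1 (0.63), which shuttles p53 out of the nucleus, and Thbs1 (0.52), thrombospondin.

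For genes that act on p53, the share higher on all 3 days was close to that of all genes. Of 43 other regulators, 37 were tested, 8 were higher on all 3 days and 5 lower, with medians of 0.03, -0.02 and 0.00, and the 21.6% higher compare with 22.1% of all genes. No regulator passed in limma in either direction, with 3 at an unadjusted p under 0.05 (1 higher, 2 lower), or 8.11% against 12.3% of all genes. Of the 37, 1 had every KO array above every L/L array and 4 had every KO array below. Of all genes, 7.48% and 5.66% did. The kinase Hipk2, which phosphorylates p53, was at 1967, 1692 and 1913 in L/L, compared with 1668, 1171 and 889 in KO, every KO array below every L/L array (mean -0.63 ± 0.44, limma adjusted p = 0.381). Daxx (0.49), a partner of Mdm2, and the ligase Ube4b (-0.38) and deacetylase Sirt1 (-0.24), which restrain p53, followed.

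Cell cycle genes known to be repressed through p21 and the DREAM complex had a median near 0 on days 2 and 3 and below 0 on day 5. Of 36, 33 were tested, 8 were lower on all 3 days and 5 higher (15.2%). Of all genes, 17.4% were lower and 22.1% higher. The medians of the list were 0.04, -0.03 and -0.33, against 0.01, -0.01 and 0.02 for all genes. None passed over the 3 days in limma, and the 4 at an unadjusted p under 0.05 (1 higher, 3 lower) are 12.1%, against 12.3% of all genes. The higher one was Rrm2, a subunit of ribonucleotide reductase (mean 0.39, limma adjusted p = 0.379), named after its values were seen. The largest mean differences were those of Cdc25c (-0.54), Ccnb2 (-0.53), Mki67 (-0.49) and Cenpf (-0.46). The differences of Ccnb2, cyclin B2, and Birc5, survivin, became more negative with day (-0.33 log2 units per day for each, limma adjusted p = 0.0454 and 0.0485), although without the filter on dim genes no gene passed. Birc5 was named after its values were seen, since it and Ccnb2 were the 2 genes called of the 33 in the list. Of all genes, 0.583% were called as falling with day.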

How the data were processed

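Biotin-labelled RNA of 6 pools was hybridised to Affymetrix 3' arrays. The authors deposited 1 processed intensity per probe set, and the submitters' processing notes name Partek and RMA without a version or role. Deposited intensities ran from 3.82 to 31146 and were on a linear scale, where log2 values had been assumed; log2 was taken with no offset and no further normalization. Of 45101 probe sets, 64 were controls, 34945 had 1 gene, 932 had several and were left out, and 9160 were not listed. Symbols follow GRCm38.p6. Genes whose brightest probe set had a mean log2 of at most 5.28 (intensity 38.9), the 40th percentile over probe sets other than controls, were left out. No source used here gives the build behind the array. Two-sided tests used limma 3.58.1 in R 4.3.3 with Benjamini-Hochberg adjustment at 0.05: genotype with day as a factor (2 residual degrees of freedom, prior 3.03), and genotype times centred day (1 and 4.76). SD is over the 3 daily differences. Both fits were tested on simulated data. A single day has no test and was described by 2-fold counts.

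The members and lists were chosen with earlier results of these data known. Named genes were all members, up to 4 of each further list by size of the mean difference, and the genes that check the design. Alternatives were other choices of probe set, filter, offset, scaling and eBayes settings, leaving out each day, no day term and day order.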

Additional observations from a re-analysis of the deposited data

Results flagged for a closer look

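Differences between days were singled out for 8 members. The difference between KO and L/L changed with day in the limma test for Ccng1, by 0.36 log2 units per day, and for Zmat3, by 0.43. For 6 other members, the difference was above 0 on at least 1 day and below 0 on another, with 1 pool per group and no test of the change of sign. Its highest and lowest daily values were 0.85 log2 units apart for Sesn1 and 0.42 for Sfn. They were 0.23 apart for Perp and 0.23 for Xpc, 0.11 for Rrm2b and 0.084 for Fas, less than the 0.20 median L/L range of the members for the last pair.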

How the results depend on the processing

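The median difference of the members kept its sign and lay between 0.32 and 0.49 over 10 alternatives. Of 329 values of single members under 11 alternatives, 322 kept their sign and their side of the threshold. Much of this was fixed beforehand. A change of filter, eBayes settings or day term leaves a mean difference as it was, so its sign could not change. All members tested but Glipr1 also began on the side not called. Glipr1 was no longer called with the mean of all probe sets (0.97), without day 2 (1.60) or without day 3 (1.61), and each of these left 0 members called over the 3 days. Over all genes the calls numbered 1, 1 and 0 under those settings (1528, 2262 and 606 at an unadjusted p under 0.05 in limma). The near-zero values of Rrm2b (-0.0066 with centred arrays, -0.029 without day 5) and Xpc (0.049 without day 2, 0.0039 without day 3) changed sign. Calls for a change with day varied most, over all genes and among members: 0 and 0 without the filter (2475 and 15 at an unadjusted p under 0.05 in limma), 275 and 6 with the filter at the 60th percentile, 550 and 9 with an offset of 32, 312 and 6 with centred arrays, 512 and 9 with trend and robust eBayes, and 63 and 6 by order of the days. Without the filter 2 members were 2-fold apart on day 2. The causes were not tested. Fits without a day leave 1 residual degree of freedom. Neither centring nor cyclic loess shifted the median of all genes by more than 0.1 on any day. The test over the 3 days compares KO and L/L within each day; with no day term 3 genes and 1 member were called (956 and 17 at an unadjusted p under 0.05 in limma). Arrays give no detection call here, so dim genes were judged by the threshold alone.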
